A study of Arabidopsis thaliana with 6 samples.

Results

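LHCA1 to LHCA6 are the 6 genes of Arabidopsis thaliana that encode the light-harvesting proteins of photosystem I. They were taken by their locus identifiers, and all 6 were among the 24439 genes with a value in every library. RNA was sequenced from whole seedlings that had spent 4 days in darkness at 22 °C, after cold treatment of the seeds and 12 h of white light. The f1f3 seedlings were homozygous for mutations in FYPP1 and FYPP3, which encode catalytic subunits of the phosphatase PP6. The pifq seedlings were labelled as homozygous for pifq1 pifq3 piq4 pifq5, read here as mutants of the transcription factor genes PIF1, PIF3, PIF4 and PIF5. Col was the wild type. Each genotype had 2 libraries from biological replicates, 6 in all, and the labels name no allele and no number of seedlings per library.

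Photosystem I binds its antenna proteins as a crescent along a single side of the reaction centre. LHCA1 pairs with LHCA4 and LHCA2 pairs with LHCA3, and these heterodimers pass absorbed light energy to the core. LHCA4 and LHCA3 carry the chlorophylls that absorb the longest wavelengths. LHCA5 and LHCA6 are scarce relatives that link photosystem I to the chloroplast NADH dehydrogenase-like (NDH) complex, which works in cyclic electron flow. Seedlings in darkness make etioplasts and little antenna protein, and the PIFs are known to restrain the genes of the photosynthetic apparatus until light arrives.

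The f1f3 libraries held 20.2 M and 21.6 M reads, the pifq libraries 27.7 M and 19.4 M, and the Col libraries 17.9 M and 23.8 M. Values below are the deposited gene values, which are read counts scaled per library. The mutated genes kept transcripts. FYPP1 averaged 336 ± 71.5 in f1f3 and 735 ± 33.1 in Col (SD, n = 2 each), and FYPP3 averaged 272 ± 17.7 in f1f3 and 590 ± 9.55 in Col. In pifq, PIF3 fell to 49.9 ± 17.5, against 1868 ± 130 in Col, and PIF5 fell to 114 ± 36.6, against 565 ± 134 in Col. PIF1 averaged 1189 ± 41.2 in pifq and 866 ± 33.5 in Col, and PIF4 averaged 857 ± 251 in pifq and 452 ± 35.1 in Col. Neither PIF1 nor PIF4 passed the test (limma, adjusted p = 0.125 and 0.0808). Both pifq libraries lay above both Col libraries for PIF1 and PIF4, so transcript level showed no reduction of these genes in pifq. In f1f3, PIF4 averaged 102 ± 19.5 and PIF5 averaged 264 ± 101, both below Col (limma, adjusted p = 0.00277 and 0.0458). PIF1 and PIF3 did not pass in f1f3 against Col (limma, adjusted p = 0.438 and 0.317). A list of 14 root markers summed to 9082 and 11180.3 in f1f3, 6158 and 7840.4 in pifq and 11010.5 and 11032 in Col, and none of the 14 was at 0 in any library. Of these root markers, 5 rose and 1 fell in f1f3 against Col (limma, adjusted p below 0.05), where 11.6% of all genes tested rose and 12.8% fell. A list of 14 seed storage and late embryogenesis genes summed to 21231 in pifq replicate 1 and to between 43.2 and 224 in the other libraries, and all 14 had reads in pifq replicate 1. SESA4 was at 0 in both f1f3 libraries, 6 genes were at 0 in pifq replicate 2, and 2 were at 0 in each Col library. PORA, a protochlorophyllide oxidoreductase gene of dark-grown seedlings, stood at 30154 and 38261 in f1f3, 9679 and 9810 in pifq and 64658 and 70965 in Col. The part of these differences in the antenna results was not tested, except that some results without single libraries are given below.

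In RefSeq's TAIR10.1 annotation, LHCA1 (AT3G54890) lies at chr3:20339504-20341176 on the minus strand, with 3 exonic blocks over 4 annotated transcripts. LHCA2 (AT3G61470) lies at chr3:22745514-22747444 on the plus strand and LHCA4 (AT3G47470) at chr3:17493343-17495033 on the minus strand, each with 4 exons. LHCA3 (AT1G61520, 2 exonic blocks) lies at chr1:22699715-22701412, LHCA5 (AT1G45474, 6 blocks) at chr1:17179250-17180806 and LHCA6 (AT1G19150, 3 exons) at chr1:6612630-6613972, all on the plus strand. Each span covers the whole gene, from the first annotated transcript base to the last. The 250 bases before each gene's start were searched on both strands for 4 motifs. These were the G-box CACGTG and the PBE-box CACATG, both known as PIF binding sequences, the I-box GATAAG of light-regulated genes, and CCAATC, a sequence known for the GLK factors that switch on antenna genes. The motifs share no overlapping copy in these windows. Upstream stretches are shown for LHCA1, whose level differed most between pifq and Col, for LHCA2 and LHCA4, which stand for the other abundant genes, and for LHCA5, a linker gene. Each is printed in the gene's own direction and ends at the base before the annotated start, with motif copies in capitals.
LHCA1: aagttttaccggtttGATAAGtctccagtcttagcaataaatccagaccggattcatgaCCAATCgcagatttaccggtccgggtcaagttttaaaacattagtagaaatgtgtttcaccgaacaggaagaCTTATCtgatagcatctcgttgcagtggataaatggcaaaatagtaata
LHCA2: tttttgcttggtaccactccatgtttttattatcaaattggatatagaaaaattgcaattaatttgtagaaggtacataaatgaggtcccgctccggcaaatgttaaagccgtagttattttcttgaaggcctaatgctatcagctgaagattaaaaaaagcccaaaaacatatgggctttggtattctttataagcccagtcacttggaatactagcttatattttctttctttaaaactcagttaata
LHCA4: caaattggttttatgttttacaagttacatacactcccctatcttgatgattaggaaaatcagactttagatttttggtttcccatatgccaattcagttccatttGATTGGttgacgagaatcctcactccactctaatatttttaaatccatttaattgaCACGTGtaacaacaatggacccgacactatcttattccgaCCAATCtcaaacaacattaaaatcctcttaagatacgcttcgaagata
LHCA5: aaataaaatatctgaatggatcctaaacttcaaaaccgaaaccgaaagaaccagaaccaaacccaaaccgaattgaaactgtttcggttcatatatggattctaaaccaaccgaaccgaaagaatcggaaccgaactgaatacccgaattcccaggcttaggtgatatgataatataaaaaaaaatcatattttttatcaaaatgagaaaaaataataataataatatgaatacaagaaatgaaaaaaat
These stretches are chr3:20341177-20341356 (minus strand) for LHCA1, chr3:22745264-22745513 (plus) for LHCA2, chr3:17495034-17495283 (minus) for LHCA4 and chr1:17179000-17179249 (plus) for LHCA5. The LHCA1 stretch stops after 180 bases because the neighbouring gene lies beyond it. LHCA1 held the I-box 165 and 49 bases before its start, CCAATC 121 bases before it, and a PBE-box 197 bases before it, inside the neighbouring gene and so not printed. LHCA4 was the only member with a G-box, 88 bases before its start, and it held CCAATC 144 and 48 bases before it. LHCA3 held CCAATC 35 bases before its start. None of the 4 motifs was in the windows of LHCA2, LHCA5 or LHCA6. The LHCA6 window overlaps the neighbouring gene AT1G19140, and only its last 20 bases lie between the genes. Of 22766 windows of this length, 7.16% held the G-box, 11.3% the PBE-box, 12.3% the I-box and 10.3% CCAATC. With 6 windows, these matches describe the sequences and show no binding.

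The members are relatives but not near-copies. Over the 15 pairs, identity of the coding sequences ran from 58.9% between LHCA3 and LHCA6 to 66.4% between LHCA1 and LHCA5. The longest run that any pair shared was 20 bases, in LHCA3 and LHCA6, and is shown in capitals within 60 bases of each coding sequence because it bears on whether reads could be assigned to a single member.
LHCA3: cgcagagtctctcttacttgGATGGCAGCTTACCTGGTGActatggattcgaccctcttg
LHCA6: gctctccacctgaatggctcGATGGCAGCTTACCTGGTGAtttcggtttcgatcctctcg
No stretch of 30 bases of the annotated transcripts of LHCA1, LHCA3, LHCA4, LHCA5 or LHCA6 was found elsewhere in the genome. For LHCA2, 288 of 1379 such stretches (20.9%) also occurred on chromosome 5, between 10372549 and 10373370, and 3 positions on chromosome 1 matched as well. The chromosome 5 copy overlaps AT5G28450, named here after its values were seen, which held between 3 and 12 reads per library. How reads that fit both places were counted is not given in the sources used here, so the LHCA2 values carry that uncertainty.

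For the 4 crescent genes, both f1f3 libraries lay below both Col libraries and both pifq libraries above them. LHCA1 had deposited values of 1412 and 814 in f1f3, 50110.1 and 67203 in pifq and 6408 and 5124 in Col. LHCA2 had 5410 and 2718 in f1f3, 56942 and 62644 in pifq and 22732 and 20694 in Col. LHCA3, the partner of LHCA2, had 3937 and 1810 in f1f3, 38646 and 51764 in pifq and 16538 and 13609 in Col. Thus f1f3 was lowest and pifq highest for each of these genes, and no 2 genotypes overlapped. LHCA4, the partner of LHCA1, had 3913 and 1548 in f1f3, 45956 and 75522 in pifq and 20009 and 15186 in Col, again without overlap.

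The linker genes were scarcer and differed less. LHCA5 had 251 and 215 in f1f3, 654 and 619 in pifq and 312 and 400 in Col. LHCA6 had 590 and 413 in f1f3, 1152 and 1256 in pifq and 1015 and 1137 in Col. The order of genotypes was that of the crescent genes, but the LHCA6 values of pifq and Col lay close, with 1152 as the lower pifq value and 1137 as the higher Col value.

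**Figure D1:**
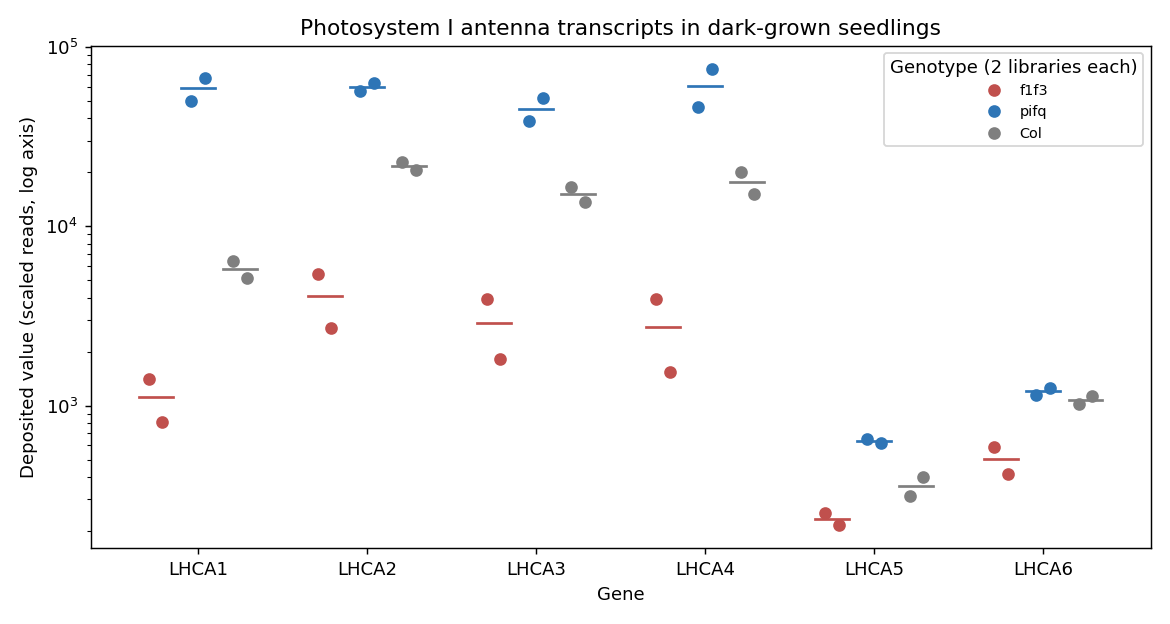
Deposited value (reads scaled per library, log axis) of each LHCA gene in the 2 libraries of f1f3, pifq and Col, with 1 point per library and the mean as a line. The 3 genotypes are separate for every gene, and LHCA1 reaches 50110.1 and 67203 in pifq against 6408 and 5124 in Col.

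Replicates of f1f3 differed from each other more for the abundant members. Replicate 1 over replicate 2 was 1.74 for LHCA1, 1.99 for LHCA2, 2.18 for LHCA3 and 2.53 for LHCA4, and 1.17 for LHCA5 and 1.43 for LHCA6. The f1f3 mean of these genes therefore rests on a pair of libraries that lie apart. In pifq, the widest gap was that of LHCA4, with replicate 2 at 1.64 times replicate 1. The 6 genes together held at least 8566 reads in every library.

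Against Col, 5 of the 6 genes fell in f1f3. Of the 20581 genes tested, 12.8% fell and 11.6% rose in this comparison, 24.4% in all. That is 2384 rises and 2634 falls, against 2915 rises and 2089 falls when the libraries were scaled to equal totals, where the same number of LHCA genes was called. The test was limma on log2(value + 1) with Benjamini-Hochberg adjustment over all genes tested, and every fold change below is on that scale. The fall was largest for LHCA4, with a log2 fold change of -2.82 ± 0.45 (SE; adjusted p = 0.00562), or 7.08-fold. It was -2.16 without f1f3 replicate 2 and -3.49 without f1f3 replicate 1 (limma, adjusted p = 0.033 and 0.00458). LHCA1 changed by -2.42 ± 0.30 (adjusted p = 0.00305), LHCA2 by -2.50 ± 0.34 (adjusted p = 0.00381) and LHCA3 by -2.49 ± 0.37 (adjusted p = 0.0048), between 5.34-fold and 5.65-fold. LHCA6, which docks photosystem I to the NDH complex, fell by 1.12 on the log2 scale (SE 0.21; adjusted p = 0.00889), or 2.17-fold. LHCA5 did not pass the test, with a log2 fold change of -0.60 ± 0.20, a 95% interval of -1.07 to -0.14 before adjustment, and an adjusted p of 0.0635. The median of the 6 fold changes was -2.45, against -0.0038 over all genes tested. The call of LHCA6 was lost without f1f3 replicate 2 (limma, adjusted p = 0.0534) and without Col replicate 2 (adjusted p = 0.0524). In whole seedlings, fewer cells that express these genes and less RNA per cell cannot be told apart.

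Against Col, 4 of the 6 genes rose in pifq. Of the genes tested, 3.61% rose and 2.87% fell, 6.48% in all. LHCA1 averaged 58656 ± 12086 in pifq and 5766 ± 908 in Col (SD, n = 2 each). Its log2 fold change, the largest of the 6, was 3.34 ± 0.30 (SE; limma, adjusted p = 0.00134), the 53rd highest of the 20581 genes tested. LHCA2 rose by 1.46 ± 0.34 (adjusted p = 0.0446), LHCA3 by 1.58 ± 0.37 (adjusted p = 0.0456) and LHCA5 by 0.85 ± 0.20 (adjusted p = 0.0488). These 3 lay close to the threshold of 0.05, at 2.75-fold, 2.98-fold and 1.80-fold. LHCA4 missed the threshold despite a larger difference, with 1.76 ± 0.45 (limma, adjusted p = 0.0568; 95% interval 0.73 to 2.78). LHCA6 differed by 0.16 ± 0.21 (limma, adjusted p = 0.691; 95% interval -0.31 to 0.64). The median of the 6 was 1.52, against -0.011 over all genes tested. LHCA1 passed in each of the 15 alternative analyses, and without pifq replicate 1, the library with the seed transcripts, its log2 fold change was 3.55 (limma, adjusted p = 0.00667). LHCA2, LHCA3 and LHCA5 each lost the call when any single pifq or Col library was left out, at log2 fold changes of 1.53, 1.79 and 0.81 without pifq replicate 1. Without pifq replicate 1, LHCA4 stood at 2.12 and LHCA6 at 0.23, and neither passed.

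All 6 genes rose in pifq against f1f3. Of the genes tested, 9.36% rose and 6.63% fell, 16% in all. That is 1927 rises and 1364 falls, against 1522 rises and 1896 falls with equal library totals. This comparison sets the mutants side by side without using the Col values, although all libraries entered the same fit. LHCA1 showed the largest difference, with a log2 fold change of 5.76 ± 0.30 (SE; limma, adjusted p = 4.9e-05), or 54.1-fold, the 19th highest of the genes tested. LHCA4 followed at 4.58 ± 0.45 (23.9-fold; adjusted p = 0.000723), LHCA3 at 4.07 ± 0.37 (16.7-fold; adjusted p = 0.00056) and LHCA2 at 3.96 ± 0.34 (15.6-fold; adjusted p = 0.000481). The linker genes rose less, LHCA5 by 1.45 ± 0.20 (2.73-fold; adjusted p = 0.00318) and LHCA6 by 1.28 ± 0.21 (2.43-fold; adjusted p = 0.00566). The median was 4.01, against -0.020 over all genes tested. Each of the 6 calls held in all 15 alternatives, while the log2 fold change of LHCA4 was 3.91 without f1f3 replicate 2 and 5.25 without f1f3 replicate 1.

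**Figure D2:**
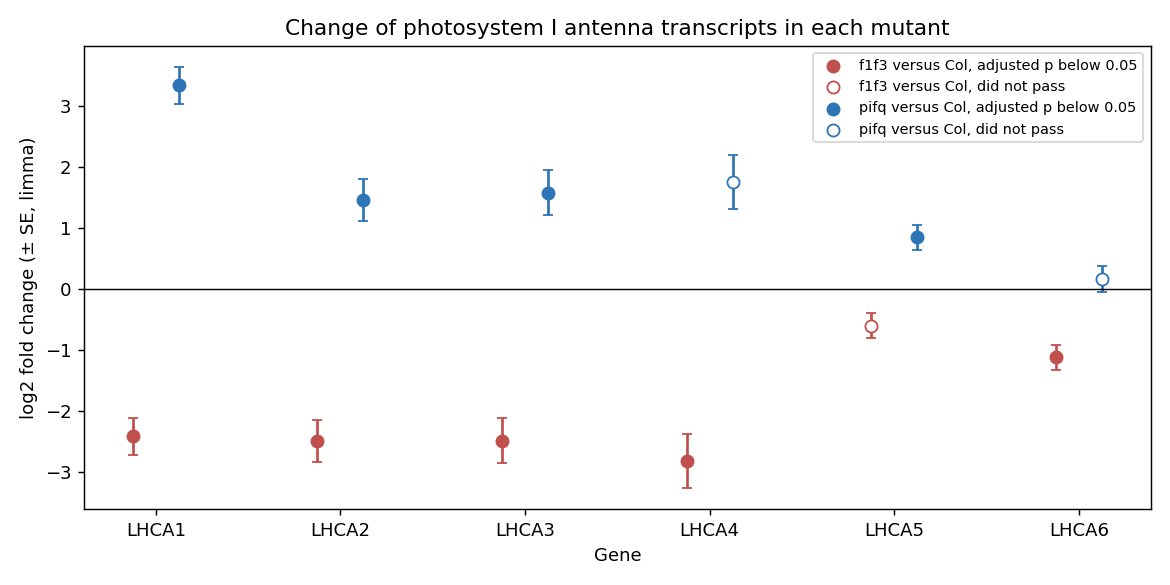
Log2 fold change of each LHCA gene in f1f3 against Col and in pifq against Col, from limma on log2(value + 1), with the SE as error bars and filled points for genes that passed an adjusted p of 0.05. LHCA5 in f1f3 against Col and LHCA4 and LHCA6 in pifq against Col are open points, and LHCA1 in pifq stands apart from the other genes at 3.34.

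Levels can be compared between genes only after division by length. The length used was the annotated exonic length of each gene, pooled over all its transcripts, from 1071 bases for LHCA5 to 1625 bases for LHCA3. For LHCA3, with 3 annotated transcripts, the pooled exons cover 1625 of the 1698 bases of the gene. A shorter length would raise its level per kilobase, so its place among the members and its share depend on this choice. Per kilobase, LHCA2 led in f1f3 with a mean value of 2886, ahead of LHCA4 with 2109, LHCA3 with 1768, LHCA1 with 874, LHCA6 with 432 and LHCA5 with 218. The libraries of LHCA2 and LHCA4 overlapped there, as did those of LHCA4 and LHCA3. In Col, LHCA2 also led, with 15421 per kilobase, ahead of LHCA4 with 13589, LHCA3 with 9276, LHCA1 with 4529, LHCA6 with 926 and LHCA5 with 332. Of the neighbours in the Col order, the libraries of LHCA2 and LHCA4 overlapped and the rest were apart. In pifq, LHCA4 with 46903, LHCA1 with 46077 and LHCA2 with 42466 per kilobase came first and could not be ordered, since LHCA1 overlapped with both. LHCA3 followed with 27818, LHCA6 with 1036 and LHCA5 with 594, all apart. Among 24146 genes with a length, LHCA1 stood 2388th per kilobase in f1f3, 14th in pifq and 347th in Col, so that it joined the most abundant transcripts of the pifq seedling. LHCA5 stood 8398th, 3551st and 6307th in the same order of genotypes.

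The make-up of the antenna transcripts followed from these levels. LHCA1 made up 10.9% ± 1.27 of the family's transcripts per kilobase in f1f3, 27.9% ± 0.047 in pifq and 10.3% ± 0.335 in Col (SD, n = 2 each). Both pifq libraries lay above both Col libraries, and the f1f3 and Col libraries overlapped. LHCA2 made up 35.0% ± 0.722 in f1f3, 26.1% ± 3.69 in pifq and 35.1% ± 2.07 in Col. LHCA3 made up 21.1% ± 0.894 in f1f3, 16.9% ± 0.0434 in pifq and 21.0% ± 0.262 in Col. For both genes of this heterodimer the pifq share was the lowest, and the f1f3 and Col libraries overlapped. LHCA4 made up 24.6% ± 3.63 in f1f3, 28.0% ± 3.97 in pifq and 30.7% ± 2.14 in Col, and its pifq libraries overlapped with those of f1f3 and of Col. LHCA5 and LHCA6 together made up 8.45% ± 2.53 in f1f3, 1.01% ± 0.185 in pifq and 2.90% ± 0.661 in Col, so that the linker genes held the highest share where the family was lowest. With 2 libraries per genotype the exact two-sided permutation test cannot give a p below 0.333, so these shares are described without a test.

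**Figure D3:**
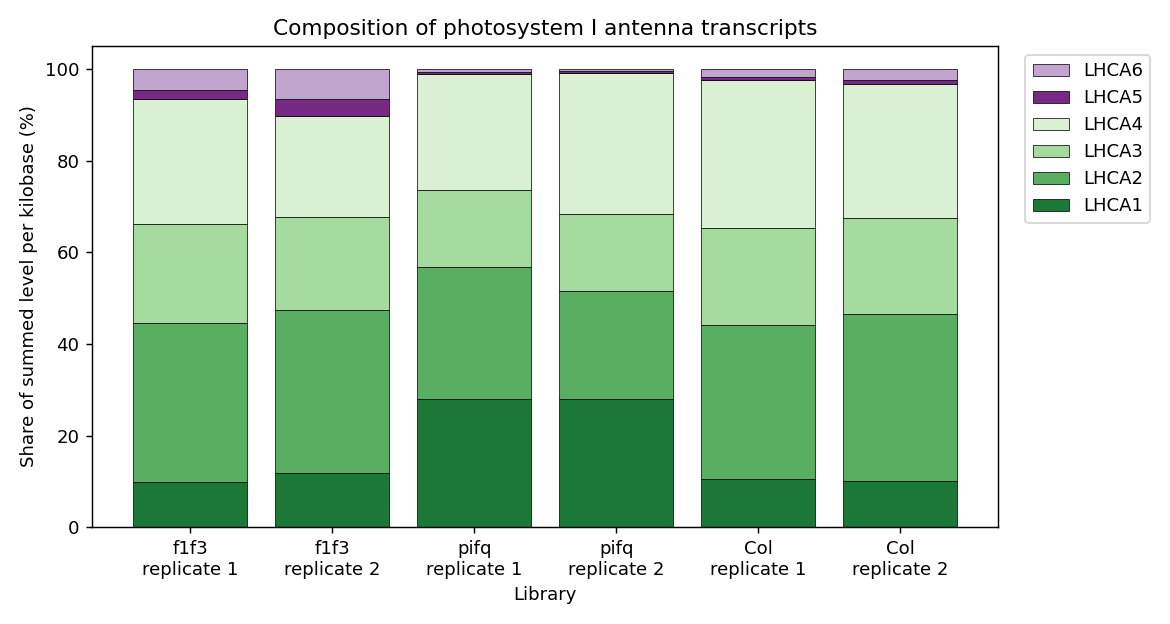
Share of each LHCA gene in the summed value per kilobase of the 6 genes, in percent, as stacked bars for each library of f1f3, pifq and Col. LHCA1 averages 27.9% in pifq against 10.3% in Col, and LHCA5 with LHCA6 averages 8.45% in f1f3 against 2.90% in Col.

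Together the 6 genes took 0.0727% of the reads of f1f3 replicate 1 (95% Wilson interval 0.0715 to 0.0739) and 0.0396% of replicate 2 (0.0387 to 0.0404). In pifq they took 0.875% (0.872 to 0.879) and 1.18% (1.17 to 1.18), and in Col 0.291% (0.289 to 0.294) and 0.269% (0.267 to 0.271). The intervals cover counting error only. The family thus took a larger share of the transcriptome in each pifq library than in any Col library, and a smaller share in each f1f3 library.

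The next values are log2(value + 1) of a gene minus the mean log2(value + 1) of the 4 crescent genes in the same library. They are not divided by length, so each gene is compared between genotypes only. LHCA1 averaged -1.09 in f1f3, 0.08 in pifq and -1.23 in Col. The difference between pifq and Col was 1.31, without overlap, while the f1f3 and Col libraries overlapped. LHCA5 averaged -3.29 in f1f3, -6.43 in pifq and -5.24 in Col, and LHCA6 averaged -2.205 in f1f3, -5.51 in pifq and -3.64 in Col. Both linker genes thus lay nearest to the crescent genes in f1f3 and farthest from them in pifq, with no overlap between genotypes.

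Profiles over the 6 libraries, each centred on the gene's own mean, put numbers on this grouping. The root mean square difference of log2 values was 0.11 between LHCA2 and LHCA3, which form a heterodimer, and 0.31 between the linker genes LHCA5 and LHCA6. LHCA1 and its partner LHCA4 were 0.69 apart, farther than LHCA4 was from LHCA2 (0.33) and LHCA3 (0.24). The widest gap was 1.89, between LHCA1 and LHCA6. By the same measure, applied to 8840 tested genes with a symbol, the genes nearest to LHCA2 were PSAK (0.10), a photosystem I subunit gene, LHCA3 (0.11) and PSAE-2 (0.12), another subunit gene. Those nearest to LHCA3 were LHCA2 (0.11), PSAD-2 (0.13) and PSAK (0.15). Nearest to LHCA4 were LHCB3 (0.14), an antenna gene of photosystem II, PSBQ-2 (0.21), of the oxygen-evolving complex, and GASA6 (0.21), of a gibberellin-responsive family. LHCA1 had no close neighbour, the nearest being ESM1 (0.44), which acts in glucosinolate breakdown, LHCB2.1 (0.52) and LHCB2.2 (0.54). Nearest to LHCA5 were VAR2 (0.08), a thylakoid protease gene, GLR3.4 (0.09), a glutamate receptor-like gene, and XND1 (0.10), a NAC factor gene. Nearest to LHCA6 were NFU3 (0.06), for plastid iron-sulfur cluster transfer, GAUT12 (0.07), for cell wall xylan, and FTSH1 (0.09), another thylakoid protease gene. Profiles were not divided by each gene's own spread. Genes that vary little can therefore lie close to many others, and genes that vary widely, such as LHCA1, tend to lie far from most. XND1 had low values, between 7.9 and 24 over the 6 libraries. The 6 libraries share their genotypes and their scaling, and these distances are a description.

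The antenna serves a reaction centre whose nuclear genes were counted in the same fit. Of 12 photosystem I subunit genes, 12 fell in f1f3 against Col (12.8% of all genes tested), with a median log2 fold change of -2.196. In pifq against Col 7 rose (3.61% of all genes) and none fell, with a median of 1.53, and the other 5 did not pass. PSAK fell to 674 ± 329 in f1f3, against 4030.1 ± 345 in Col (limma, adjusted p = 0.00258). PSAF, which docks plastocyanin, rose to 50923 ± 18428 in pifq, against 12363 ± 265 in Col (limma, adjusted p = 0.0117). No subunit gene had a log2 fold change in pifq above 1.99, so LHCA1 at 3.34 lay above all 12. All 12 rose in pifq against f1f3 (9.36% of all genes), with a median of 3.66. The count of 12 in f1f3 was 6 without f1f3 replicate 2. The count of 7 in pifq was 2 without either Col library and 3 without either pifq library.

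Of 15 photosystem II antenna genes, 14 fell in f1f3 (median -2.88), 7 rose in pifq against Col (median 2.02) and 13 rose in pifq against f1f3 (median 4.86). The shares of all genes tested were 12.8%, 3.61% and 9.36% in the same order. The LHCB2.1 value fell to 523 ± 236 in f1f3, against 5762 ± 260 in Col (limma, adjusted p = 0.00241), and rose to 36316 ± 17711 in pifq (limma, adjusted p = 0.0104). LHCB1.1 and LHCB1.4 rose in pifq by 5.50 and 6.30 on the log2 scale (limma, adjusted p = 0.00017 and 0.00019), more than LHCA1. These genes belong to families with near-identical copies, between which the authors' counting could split reads. The count of 7 was 4 without Col replicate 2 or without either pifq library.

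The NDH complex is the partner of LHCA5 and LHCA6. Of 17 of its nuclear genes, 12 fell in f1f3 (12.8% of all genes tested), and the median log2 fold change was -1.43. The count was 8 without Col replicate 2 and 8 without f1f3 replicate 2. In pifq against Col, 1 rose and 1 fell, near the shares of all genes (3.61% and 2.87%), with a median of 0.09, beside 0.85 for LHCA5 and 0.16 for LHCA6. NDHO fell in both mutants, to 486 ± 33.0 in f1f3 and 898 ± 6.15 in pifq, against 1891 ± 82.9 in Col (limma, adjusted p = 0.00107 and 0.00938). PNSB5 averaged 523 ± 37.2 in f1f3, which did not pass, and rose to 828 ± 46.0 in pifq, against 455 ± 30.2 in Col (limma, adjusted p = 0.0266). Of the 17, 12 rose in pifq against f1f3 (9.36% of all genes), with a median of 1.12. The 2 calls in pifq against Col were 0 without either Col library or without pifq replicate 1, and 1 without pifq replicate 2. The 12 calls between the mutants were 4 without f1f3 replicate 2 and 5 without either pifq library. Both mutants were compared with the same Col libraries, so a value of Col that lies high or low by chance moves both comparisons.

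**Figure D4:**
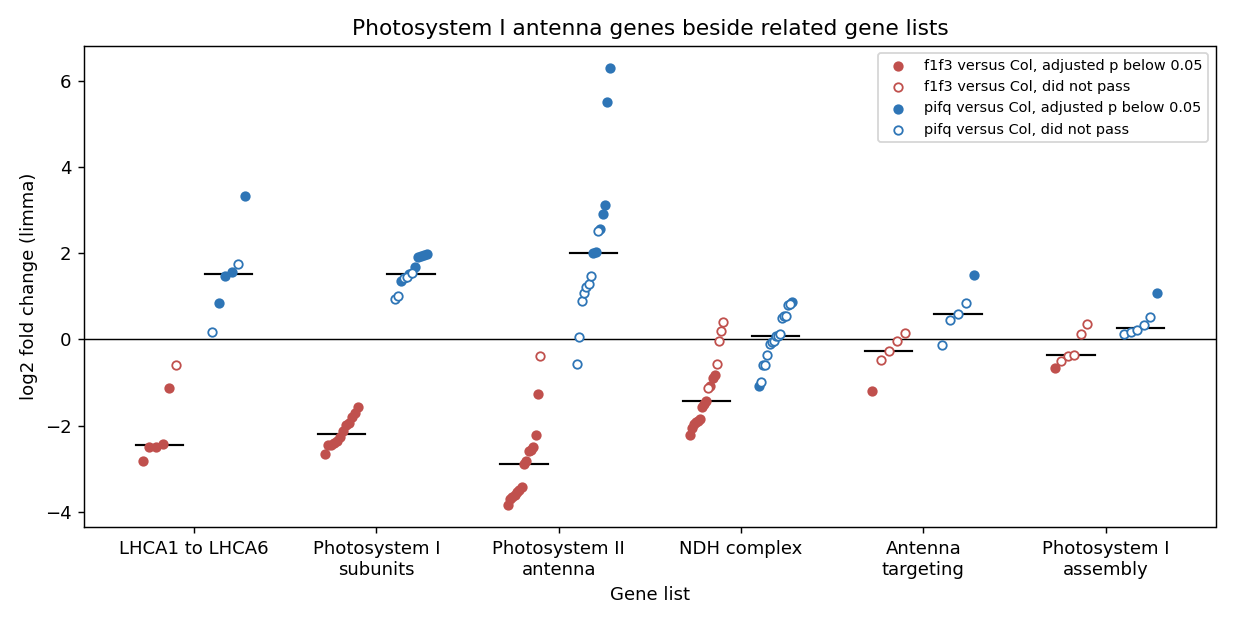
Log2 fold change (limma) of each gene in f1f3 against Col and in pifq against Col, with 1 point per gene for the LHCA genes and 5 lists of related genes, a line at each median and filled points for genes that passed an adjusted p of 0.05. The LHCA medians are -2.45 in f1f3 and 1.52 in pifq against Col, and the NDH medians are -1.43 and 0.09.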

How the data were processed

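Libraries came from 4-day-old dark-grown seedlings, with total RNA and standard Illumina library preparation per the labels' protocols. Per the submitters' processing notes, Trimmomatic, TopHat2 2.1.0, HTSeq 0.6.1 and edgeR were used with TAIR10, without a statement of strand or of the step that scaled the values. The deposited signal of each gene behaves as a gene count divided by a scaling factor. In each library, 99.93% to 99.99% of the values were whole multiples of the value of 1 read (0.799 to 1.29), within 0.0505, and that value multiplied by a median-of-ratios factor computed here gave 1. Reads were recovered by division.

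The 20581 genes that reached 10 in 2 or more libraries were tested with limma 3.58.1 (intensity trend, two-sided) on log2(value + 1), all 6 libraries in 1 fit with 3 residual and 5.15 prior degrees of freedom. A change was called at a Benjamini-Hochberg adjusted p below 0.05. Alternatives were edgeR 4.0.16 and DESeq2 1.42.0 on recovered reads, equal library totals, pseudocounts of 0.5 and 5, other filters, only the groups compared, a replicate block, and each library left out. The files hold no coordinates. Sequences, lengths and coordinates are from RefSeq's TAIR10.1 by locus identifier (R 4.3.3, Biopython 1.88).

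The members and gene lists were chosen with earlier results of these data known. Named genes are the 6 members, the mutated genes, up to 4 genes per list and comparison with the smallest p plus any that changed against most of the list, and the 3 genes nearest in profile to each member; of these, the text gives a part.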

Additional observations from a re-analysis of the deposited data

How the results depend on the processing

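All 18 fold changes of the LHCA genes kept their direction under the 15 alternatives. In pifq against Col, LHCA2 and LHCA3 lost their calls under 5 of them and LHCA5 under 9, while LHCA4 gained a call under 6. The number of members called there was 1, LHCA1, without a filter on low values and ranged from 1 to 4 when single libraries were left out. In f1f3 against Col it ranged from 4 to 5, and in pifq against f1f3 it stayed at 6. Over all genes, leaving out 1 library gave 1422 to 4663 calls in f1f3 against Col (5018 with all), 365 to 1233 in pifq against Col (1333 with all) and 1388 to 2859 in pifq against f1f3 (3291 with all). DESeq2 called 2434 genes in pifq against Col. Equal library totals moved the median of all genes by 0.12 in f1f3 against Col and by -0.13 in pifq against f1f3. Without division by length, LHCA1 made up 25.9% of the family in pifq and 9.34% in Col. The cause of these changes was not tested.

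Libraries with the same replicate number shared no stated origin, and each comparison had 2 pairs. Deviations of same-numbered libraries correlated across genes at 0.345 for f1f3 and Col, 0.444 for pifq and Col and 0.215 for pifq and f1f3. With the replicate number as a block, 7436 genes were called in f1f3 against Col, 2915 in pifq against Col and 5458 in pifq against f1f3. The block added LHCA5 in f1f3 (limma, adjusted p = 0.0407) and raised the members called to 6 in f1f3 and 5 in pifq against Col.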

Other observations

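Of 5 genes that target antenna proteins to the thylakoid, 1 fell in f1f3 against Col, 1 rose in pifq against Col and 3 rose in pifq against f1f3. Of all genes tested, 12.8%, 3.61% and 9.36% did so in these comparisons, and single calls in so short a list are not read as a change of the list. ALB3, the thylakoid insertase, averaged 3199 ± 336 in f1f3 and 7307 ± 605 in Col (SD, n = 2 each; limma, adjusted p = 0.00668). The gene that rose in pifq was cpSRP43, the chaperone of antenna proteins in the stroma, at 7668 ± 7.78 in pifq and 2749 ± 385 in Col (limma, adjusted p = 0.0132), and this call was lost without Col replicate 2 or without either pifq library. Between the mutants, 1 gene was called without f1f3 replicate 2 or without pifq replicate 2.

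Of 6 photosystem I assembly genes, PYG7 fell in f1f3, to 937 ± 95.4 against 1473 ± 160 in Col (limma, adjusted p = 0.0365). PPD1 rose in pifq, to 514 ± 44.2 against 242 ± 7.28 in Col (limma, adjusted p = 0.0197), and 4 of the 6 rose in pifq against f1f3. The shares of all genes were again 12.8%, 3.61% and 9.36%, so 1 fall among 6 genes lies near the share of all genes. Each of the calls against Col was lost when any single library of the pair compared was left out. Between the mutants, 2 were called without Col replicate 2 or without f1f3 replicate 1, 0 without f1f3 replicate 2 and 1 without either pifq library. With equal library totals, PYG7 lost its call and 2 genes were called between the mutants.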
